A study of Homo sapiens with 8 samples.

Results

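The human PAX, TBX, LHX, IRX and SOX genes and the sine oculis homeobox genes, such as SIX2 and SIX5, code for transcription factors that set cell identity during development. Members were taken by symbol: protein-coding genes of chromosomes 1 to 22 and X whose symbol is 1 of these 6 family stems followed by digits alone, with 1 SOX gene left out. This gave 60 of 19970 genes, made up of 9 PAX, 13 TBX, 8 LHX, 6 IRX, 18 SOX and 6 sine oculis homeobox genes. The rule uses symbols and no measured value, but the families were chosen with earlier results of these data known.

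Chromatin accessibility around these genes was read from ATAC-seq peak lists of H1975 and HCC44, which are established human lung cancer cell lines. ATAC-seq uses a transposase that inserts adapters into open chromatin, so that a peak marks a stretch cut more often than its background. The 4 groups were H1975 with DMSO, H1975 with ACBI1, HCC44 with DMSO and HCC44 with ACBI1, with 2 replicates each, and every treatment lasted 96 h. DMSO is the solvent. ACBI1 is a degrader of SMARCA2, SMARCA4 and PBRM1, which are subunits of the SWI/SNF chromatin remodelling complexes, and its labelled dose is 1 mM. All samples carry the genotype label WT, with no gene named. Each group is 1 cell line, and the labels do not say whether replicates came from separate cultures, so the tests measure only the spread between these samples.

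PAX proteins bind DNA through a paired domain, TBX proteins through a T-box, SOX proteins through an HMG box, and LHX, IRX and sine oculis homeobox proteins through homeodomains. Many of these genes lie in gene-poor stretches, are silent outside 1 or a few tissues, and are switched on by distal enhancers, whose opening often depends on SWI/SNF complexes. In lung, SOX9 is known as a factor of distal epithelial progenitors, and TBX2, TBX4 and TBX5 as factors of the lung mesenchyme.

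Depth in reads is unknown, because the lists give no read counts. On chromosomes 1 to 22 and X the DMSO lists held 41003 to 50323 peaks and the ACBI1 lists 22115 to 27659. The shortest list was ACBI1 replicate 2 of H1975. Whether a peak is listed depends on depth as well as on the chromatin, so a missing peak is not a measurement of closed chromatin. Of 5 epithelial marker genes, 4 had a peak at a gene end in all 8 samples, as did 2 of 4 lung lineage markers, 2 of 2 mesenchymal markers and 1 of 3 fibroblast markers. None of 3 endothelial markers had such a peak in any sample, and among 4 leukocyte markers CD14 had one in all 8 and 2, PTPRC among them, in none.

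The promoters of 6 members are shown because they span the patterns found below. SOX12 and SOX13 had a peak over the promoter in all 8 samples, SOX5 in the 4 HCC44 samples only, LHX6 in 4 samples, and PAX5 and LHX9 in none. Each line gives the 250 bases before the gene start, 5′ to 3′ on the gene's strand, from RefSeq (GRCh38.p14), with CG dinucleotides in capitals.
SOX12 (chr20:325302-325551, + strand): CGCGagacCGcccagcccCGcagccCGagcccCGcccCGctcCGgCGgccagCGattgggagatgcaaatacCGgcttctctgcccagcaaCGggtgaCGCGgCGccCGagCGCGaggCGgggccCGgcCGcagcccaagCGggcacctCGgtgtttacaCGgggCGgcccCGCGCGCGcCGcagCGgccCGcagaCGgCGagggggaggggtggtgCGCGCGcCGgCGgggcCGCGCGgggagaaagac
SOX13 (chr1:204072865-204073114, + strand): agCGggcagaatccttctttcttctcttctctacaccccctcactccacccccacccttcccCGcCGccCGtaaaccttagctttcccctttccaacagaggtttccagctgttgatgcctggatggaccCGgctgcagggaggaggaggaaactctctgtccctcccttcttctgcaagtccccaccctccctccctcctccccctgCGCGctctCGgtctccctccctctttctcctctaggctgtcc
SOX5 (chr12:24562492-24562741, - strand): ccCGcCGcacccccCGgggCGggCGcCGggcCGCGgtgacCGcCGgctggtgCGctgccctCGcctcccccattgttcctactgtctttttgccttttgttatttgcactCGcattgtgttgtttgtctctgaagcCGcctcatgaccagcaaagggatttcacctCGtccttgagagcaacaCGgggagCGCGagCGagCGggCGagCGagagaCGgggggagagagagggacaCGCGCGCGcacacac
LHX6 (chr9:122228434-122228683, - strand): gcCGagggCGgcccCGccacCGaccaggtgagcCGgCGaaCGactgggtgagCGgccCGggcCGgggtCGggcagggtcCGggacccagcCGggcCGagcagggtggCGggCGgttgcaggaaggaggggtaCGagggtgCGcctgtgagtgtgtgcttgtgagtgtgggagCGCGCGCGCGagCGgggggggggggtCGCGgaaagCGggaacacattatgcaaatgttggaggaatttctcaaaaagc
PAX5 (chr9:37034269-37034518, - strand): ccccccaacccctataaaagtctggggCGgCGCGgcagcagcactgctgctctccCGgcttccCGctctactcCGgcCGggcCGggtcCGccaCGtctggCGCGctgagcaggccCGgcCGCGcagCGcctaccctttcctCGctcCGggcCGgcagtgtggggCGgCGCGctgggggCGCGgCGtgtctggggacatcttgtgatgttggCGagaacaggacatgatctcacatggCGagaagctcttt
LHX9 (chr1:197912214-197912463, + strand): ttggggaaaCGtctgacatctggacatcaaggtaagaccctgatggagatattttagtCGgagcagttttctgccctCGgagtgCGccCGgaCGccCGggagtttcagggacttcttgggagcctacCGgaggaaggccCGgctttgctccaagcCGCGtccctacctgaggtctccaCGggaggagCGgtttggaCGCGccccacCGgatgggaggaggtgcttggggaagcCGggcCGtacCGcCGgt
SOX12 holds 42 CG dinucleotides in these 250 bases, SOX13 holds 8, LHX9 holds 20, and SOX5, LHX6 and PAX5 hold 27 each. PAX5, without a peak in any sample, thus holds more of them here than SOX13, with a peak in all 8.

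Peaks at the ends of the genes were counted first. A boundary peak is a listed peak that overlaps the window of 1 kb either side of either gene end. The gene table gives no strand, so starts and stops were not separated, and a boundary peak need not cover the promoter. Fewer members than genes at large had such a peak. In H1975, 20 of 60 members (33.3%) had one in both DMSO samples, against a background of 59.6% of all protein-coding genes. In HCC44 it was 25 of 60 (41.7%) against 61.0%. A boundary peak was present in all 8 samples at 14 members (23.3%), against 52.8% of all genes, and in no sample at 30 members (50%), against 32.8%. These shares are descriptions of the list and were not tested.

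By family, SIX2, which acts in kidney progenitors, SIX4 and SIX5 had a boundary peak in all 8 samples, and SIX3 and SIX6 in none. A peak in all 8 was also found at 5 of 18 SOX genes: SOX4 and SOX12, which belong to the same SOX subgroup, SOX6 and SOX13, which share another, and SOX9. TBX6, TBX10, LHX2, IRX3 and IRX5 had one in all 8 as well. The boundary peak of TBX10 lay at its lower-coordinate end, away from its promoter. A separate peak, counted as surrounding, covered that promoter in 5 samples only. No PAX gene was among them: PAX9, a factor of tooth and thymus development, had boundary peaks in the 4 HCC44 samples and in no H1975 sample, and the other 8 PAX genes had none anywhere.

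**Figure D1:**
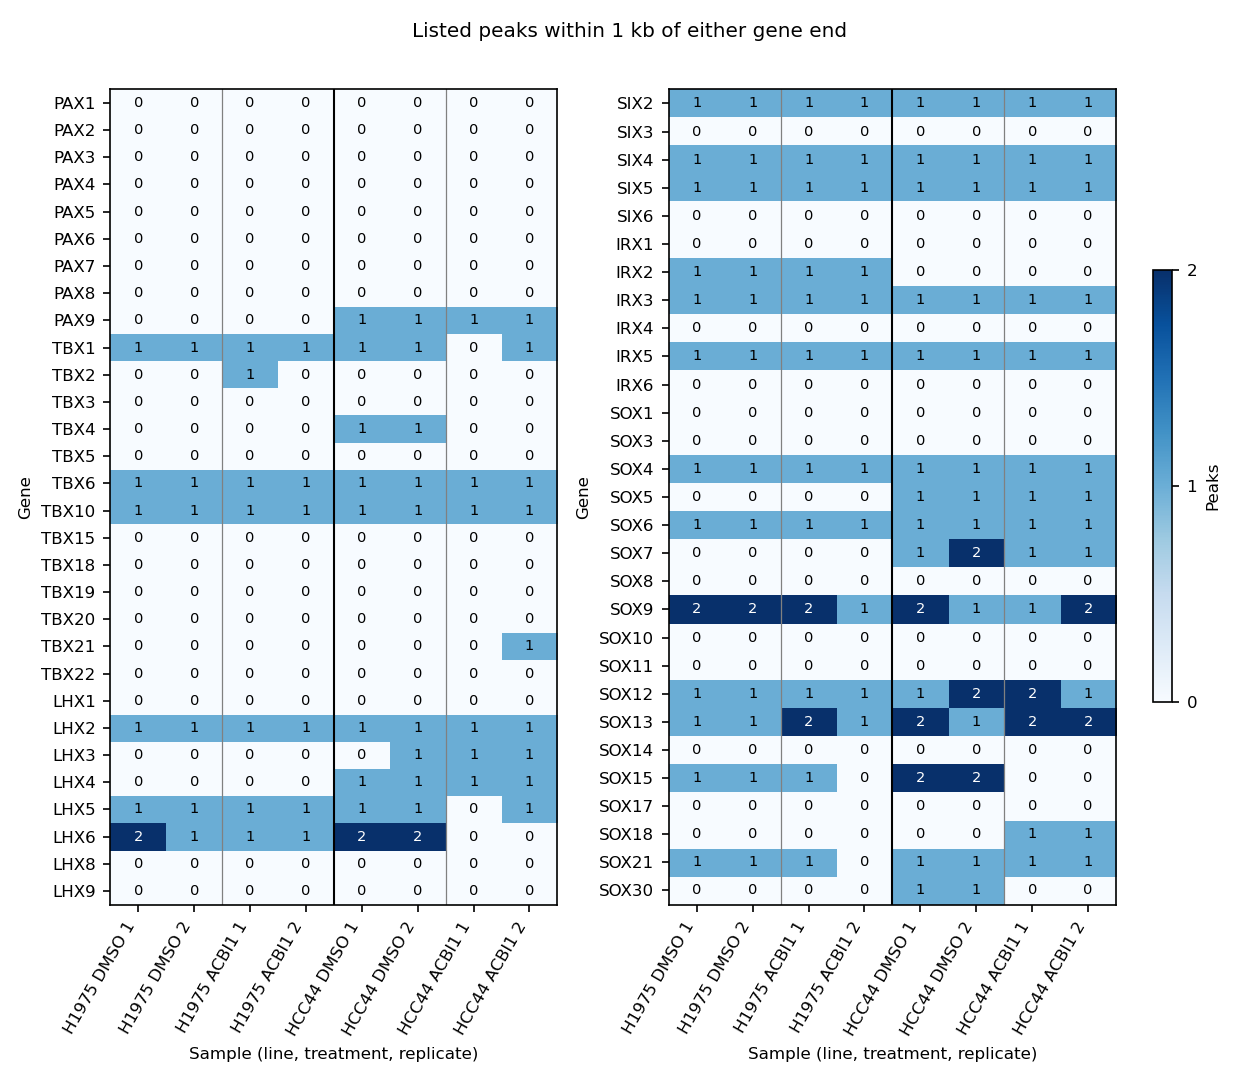
Number of listed peaks within 1 kb of either end of 59 of the genes (rows) in each of the 8 samples (columns: line, treatment, replicate). Of the rows, 13 are filled across all 8 samples and 30 are empty throughout; LHX6, SOX15, SOX30 and TBX4 are filled in both HCC44 DMSO samples and empty in both HCC44 ACBI1 samples.

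The boundary peaks that members had were of middling rank. Within each list, peaks were ranked by the authors' −log10 q, and the median percentile of member boundary peaks lay between 41.6 and 60.3 over the 8 lists. For boundary peaks of all genes it lay between 70.2 and 78.3. Widths were more alike, with medians of 874.5 to 1487 bp for members and 812 to 1147.5 bp for all genes. In the HCC44 ACBI1 lists the member peaks were the wider ones, at 1467 and 1487 bp against 977 and 971.5 bp.

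Most boundary peaks were still listed after ACBI1. In H1975, 18 of the 20 members (90%) kept one in both ACBI1 samples, against 95.3% of all genes. The exceptions, SOX15 and SOX21, lacked it only in ACBI1 replicate 2, the shortest list. In HCC44, 19 of 25 (76%) kept one, against 91.9%. In H1975 no member lost its boundary peak in both ACBI1 samples (background 2.51%) or gained one (0.27%). In HCC44 the boundary peaks of LHX6, SOX15, SOX30 and TBX4 were lost (background 5.52%). SOX18, a factor of blood and lymph vessel development, gained one in HCC44 (0.351%).

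These 5 changes involved weak peaks for the most part. TBX4 had a peak of 606 and 768 bp over its lower-coordinate end in the HCC44 DMSO lists, at percentiles 6.05 and 20.03 of −log10 q. SOX30, a testis gene of the SOX family, had peaks at percentiles 3.53 and 11.6, just above the bottom of those lists. SOX15 had 2 boundary peaks in each HCC44 DMSO list, and the stronger stood at percentiles 25.1 and 54.0. LHX6, a factor of cortical interneurons, also had 2 in each, at 36.4 and 39.5 for the one at its lower-coordinate end and at 9.04 and 21.99 for the other. The SOX18 peaks of the ACBI1 lists were at percentiles 0.232 and 2.52. Peaks as near the floor of a list as those of SOX18 and SOX30 can be gained or missed with a small change in depth. The stronger peaks of SOX15 and LHX6 stood well above the floor. How far depth entered these 5 changes was not tested.

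Peaks elsewhere in the gene body and in the 50 kb on either side, here called surrounding peaks, were counted next. In DMSO a member had a median of 3.13 of them, or 2.25 per 100 kb of window, against 2.42 per 100 kb for all genes. The most crowded windows were those of SOX12 with 9.55 peaks per 100 kb, SOX18 with 8.33, SIX5 with 8.14 and SOX15 with 7.60. Surrounding peaks include those at the boundary of another gene. Such peaks made up 21.4% of the DMSO counts of members and 29.3% of those of all genes. At SOX15 they were nearly all of the peaks counted. In 9 members no list had a peak, neither surrounding nor boundary: IRX1, LHX1, SOX3, SOX11, SOX14, TBX5, TBX18, TBX20 and TBX22. That is 15% of the members against 9.13% of all genes. The nearest peak of any sample was 84 kb away for TBX20, which acts in heart muscle, 112 kb for TBX5, a heart and forelimb factor, 485 kb for SOX11 and 747 kb for IRX1. SOX17 and SOX21 had no surrounding peak in DMSO and 1 in a single ACBI1 sample each.

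**Figure D2:**
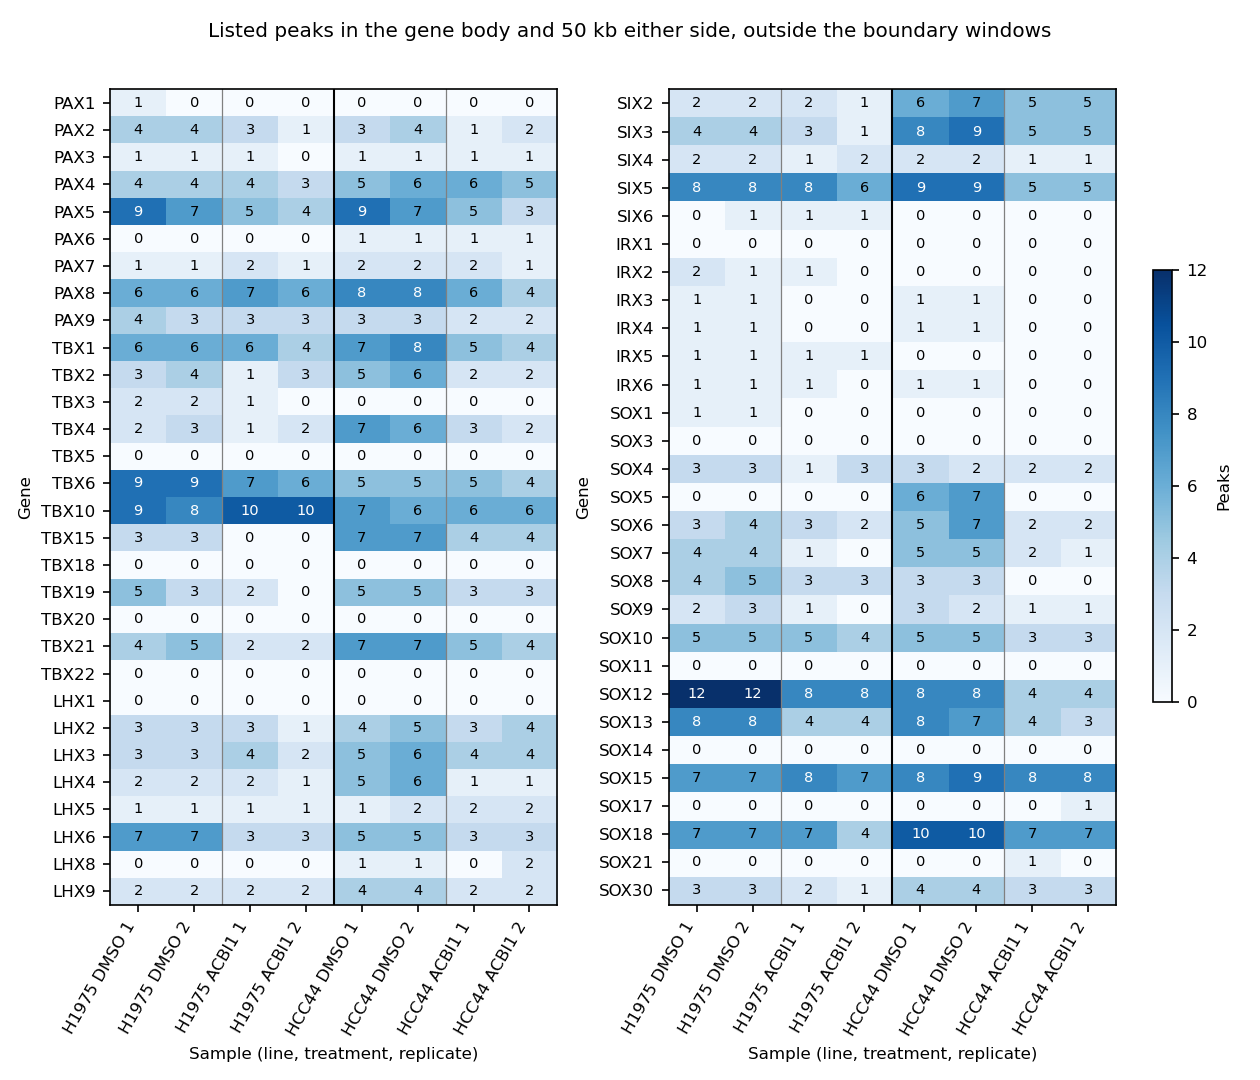
Number of listed peaks in the body and the 50 kb either side of 59 of the genes, outside the boundary windows, in each of the 8 samples. SOX12 has the darkest cells (12 in both H1975 DMSO samples), SOX5 is empty in H1975 and after ACBI1, and TBX10 is the row where both H1975 ACBI1 samples (10 and 10) exceed both DMSO samples (9 and 8).

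Summed over the members, surrounding peaks were fewer after ACBI1 in both lines. The H1975 DMSO lists held 172 and 171 distinct peaks and the ACBI1 lists 131 and 102, a log2 change of −0.57 with an SD between replicates of 0.18. The counts of HCC44 went from 199 and 205 to 122 and 115, a change of −0.77 with an SD of 0.048. The groups did not overlap in either line. Over the same samples the whole lists changed by −0.77 and −0.97. When the 8 lists were cut to equal numbers of peaks by −log10 q, the changes of the sums were 0.33 and 0.28.

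Single genes were tested with limma on log2(surrounding peaks + 1), fitted on the 15780 genes with a mean of at least 1 such peak, of which 37 are members. Values below are differences on that scale, ACBI1 minus DMSO, which understate fold changes of small numbers. Averaged over both lines, 22 of the 37 fell at a Benjamini-Hochberg adjusted p under 0.05, where 55.7% of all genes fitted fell. In the same limma test 0 rose, where 0.906% of all genes did; at an unadjusted p under 0.05, 0 members were higher. The median change was −0.46 for members and −0.43 for all genes. Scaling each list to the same total moved the median of all genes to 0.23 and that of the members to 0.11, and the split to 5 lower and 15 higher, where 15.8% and 41.6% of all genes were called. A fall below is therefore a fall in the number of listed peaks, and the 5 that were also lower relative to their lists were TBX15, SOX5, SOX8, SOX7 and LHX4. SOX5 met the filter only through the HCC44 DMSO samples, so its result was fixed by the filter and is given as a description; without it 21 members fell over both lines. Replicates tied in 49.2% to 58.7% of genes, which makes the spread of a gene small by chance and the adjusted p-values somewhat too small. With 1 spread for genes of similar mean, 24 members fell (background 56.7%) and 0 rose. Without HCC44 DMSO replicate 1, HCC44 DMSO replicate 2 or HCC44 ACBI1 replicate 2 fewer members were called, and so were fewer of all genes. The median change was then −0.48, −0.46 and −0.48 for members and −0.43, −0.44 and −0.42 for all genes.

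By line, 8 members fell in H1975 (background 30.6%) and 15 in HCC44 (44.0%). In limma 0 rose in H1975 (0.482%) and 0 in HCC44 (0.837%), with 0 and 0 higher at an unadjusted p under 0.05. Scaled to the list totals, H1975 had 2 lower (10.3%) and 9 higher (27.0%) and HCC44 3 lower (11.8%) and 7 higher (33.3%). Without SOX5 the HCC44 count was 14. The H1975 count was higher without H1975 ACBI1 replicate 1 and lower without either HCC44 DMSO replicate. The HCC44 count was lower without HCC44 DMSO replicate 2 or HCC44 ACBI1 replicate 2. In each case the share of all genes called moved in the same direction. Groups without overlap were counted as well. Both ACBI1 samples had fewer surrounding peaks than both DMSO samples at 18 members in H1975, where 43.0% of all genes did, at 31 in HCC44 (54.5%) and at 15 in both lines (33.6%). With lists of equal numbers of peaks by −log10 q these counts were 4 (12%), 7 (14.0%) and 1 (4.89%). Without H1975 ACBI1 replicate 1 they were 31 in H1975 and 24 in both lines, but leaving out a sample can only raise such counts. The share of all genes was not computed for that setting. Among genes with a surrounding peak in every DMSO sample of the line, the main counts were 18 of 44 in H1975 (40.9%, against 52.6%), 31 of 43 in HCC44 (72.1%, against 65.3%) and 15 of 40 in both (37.5%, against 42.8%). TBX10 had more in both ACBI1 samples of H1975 (background 1.38%), and 0 members did in HCC44 (1.85%). For each of the 15, an exact two-sided permutation test with labels permuted within lines gave 0.0556, the smallest p that 36 arrangements allow. A gene without overlap in both lines must give this p, so it adds nothing to the count.

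Of the 12 SOX genes fitted, 9 fell, SOX5 included, with a median change of −0.74, and scaled to list totals 3 were lower, again with SOX5, and 3 higher. Among the SOX5, SOX6 and SOX13 subgroup, which acts in cartilage and neural differentiation, SOX13 had 8 and 8 surrounding peaks in H1975 with DMSO and 4 and 4 with ACBI1. In HCC44 it had 8 and 7, then 4 and 3. The groups were apart in both lines, and SOX13 fell by 0.89 (SE 0.09, adjusted p = 0.0015 by limma). SOX6 fell by 0.79 over both lines (SE 0.16, adjusted p = 0.0139 by limma), from 3 and 4 to 3 and 2 in H1975 and from 5 and 7 to 2 and 2 in HCC44. Outside that subgroup, SOX30 had 3 and 3 against 2 and 1 in H1975 and 4 and 4 against 3 and 3 in HCC44. It fell by 0.51 (SE 0.14, adjusted p = 0.032 by limma), a change of 0.11 in the other direction when scaled to list totals. Without any 1 DMSO or HCC44 sample SOX30 lost its call, with the change still at −0.51.

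SOX5 stood apart. It had no listed peak in any H1975 sample, 6 and 7 surrounding peaks in HCC44 with DMSO and 0 and 0 with ACBI1. Its change of −2.90 in HCC44 is a description, for the reason given above. Its boundary peak over the printed promoter, by contrast, was listed in all 4 HCC44 samples, 1785 and 1899 bp wide with DMSO and 1413 and 1490 bp with ACBI1. Ranked by −log10 q within its list, that peak stood at percentiles 39.3 and 35.7 with DMSO. With ACBI1 it stood near the bottom of the lists, at percentiles 3.79 and 8.58. SOX5 is a gene of 1033147 bp, and 5 of the 6 regions lost in HCC44 lay inside it, from chr12:24038268-24039417 to chr12:24227035-24227793. The other lay 38.0 kb beyond its start at chr12:24600664-24601327 and was the strongest, with a −log10 q of 51.5 and 59.4.

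The SOX8, SOX9 and SOX10 subgroup acts in neural crest, cartilage and gonad. SOX8 had 4 and 5 surrounding peaks with DMSO and 3 and 3 with ACBI1 in H1975, and 3 and 3 against 0 and 0 in HCC44. SOX9 had 2 and 3 against 1 and 0 in H1975, and 3 and 2 against 1 and 1 in HCC44. Over the lines together, SOX8 fell by 1.23 (SE 0.06, adjusted p = 0.000141 by limma) and SOX9 fell by 1.04 (SE 0.27, adjusted p = 0.0302 by limma). Without any 1 DMSO or HCC44 sample the adjusted p of SOX9 was 0.0648 to 0.0982 by limma. SOX9 kept a boundary peak of 1646 to 1983 bp at its lower-coordinate end in every sample, while SOX8 had none in any. SOX10, the factor of glia and melanocytes, went from 5 and 5 to 5 and 4 in H1975 and from 5 and 5 to 3 and 3 in HCC44, and fell by 0.36 over the lines together, a change of 0.35 in the other direction when scaled to list totals.

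SOX7 and SOX18 are factors of endothelial cells. SOX7 went from 4 and 4 peaks to 1 and 0 in H1975 and from 5 and 5 to 2 and 1 in HCC44, with no overlap in either line, and fell by 1.56 (SE 0.27, adjusted p = 0.00925 by limma). SOX18 had 7 and 7 against 7 and 4 in H1975 and 10 and 10 against 7 and 7 in HCC44, with an adjusted p of 0.0916. SOX12, a broadly expressed relative of SOX4 and SOX11, went from 12 and 12 to 8 and 8 in H1975 and from 8 and 8 to 4 and 4 in HCC44. Away from every gene boundary SOX12 had 8 and 8 against 4 and 4 in H1975 and 4 and 4 against 0 and 0 in HCC44. Replicates of SOX12 tied in all 4 groups, so its SE of 0.01 is not a usable error. Its change of −0.69 was 0.074 when scaled. SOX15 showed values close together, 7 and 7 against 8 and 7 in H1975 and 8 and 9 against 8 and 8 in HCC44. Its adjusted p was 0.996 by limma. Nearly all of these peaks lay at the boundaries of other genes. Away from every gene boundary SOX15 had 0 and 0 against 0 and 0 in H1975 and 0 and 1 against 0 and 0 in HCC44.

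Of the 8 TBX genes fitted, 6 fell over both lines, and 1 was lower and 3 higher when scaled. TBX15, a factor of skeletal and fat cell development, had 3 and 3 surrounding peaks in H1975 with DMSO and 0 and 0 with ACBI1, and 7 and 7 against 4 and 4 in HCC44. TBX21, which codes for T-bet of type 1 T helper cells, had 4 and 5 against 2 and 2 in H1975 and 7 and 7 against 5 and 4 in HCC44, and fell by 0.71 (SE 0.09, adjusted p = 0.00333 by limma). TBX4 had 2 and 3 against 1 and 2 in H1975 and 7 and 6 against 3 and 2 in HCC44, and fell by 0.81 (SE 0.20, adjusted p = 0.026 by limma). Its neighbour TBX2 fell by 0.89; the windows of the pair overlap, so that a peak can count for both. TBX4 lost its call without any 1 of 5 of the 8 samples (H1975 DMSO replicate 2, H1975 ACBI1 replicate 1, either HCC44 DMSO replicate or HCC44 ACBI1 replicate 2), with adjusted p-values of 0.0528 to 0.0888 by limma, and TBX2 without any 1 DMSO or HCC44 sample (0.0827 to 0.117).

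TBX6 acts in the paraxial mesoderm and TBX1 in the pharyngeal arches. TBX6 had 9 and 9 against 7 and 6 in H1975 and 5 and 5 against 5 and 4 in HCC44, a fall of 0.27 (adjusted p = 0.0368 by limma). Away from every gene boundary TBX6 had 3 and 3 against 1 and 0 in H1975 and 0 and 0 against 0 and 0 in HCC44. TBX1 had 6 and 6 against 6 and 4, then 7 and 8 against 5 and 4, a fall of 0.44 (adjusted p = 0.0494 by limma). Both calls depended on the samples used: TBX6 lost its call without any 1 of 6 samples, all but H1975 ACBI1 replicate 1 and HCC44 ACBI1 replicate 1, at adjusted p-values of 0.0599 to 0.104 by limma, and TBX1 without any 1 but H1975 ACBI1 replicate 1 (0.0675 to 0.14). With 1 spread for genes of similar mean TBX6 had an adjusted p of 0.0642 by limma. Scaled to list totals both turned higher, to 0.47 and 0.30. TBX10 had 9 and 8 against 10 and 10 in H1975 and 7 and 6 against 6 and 6 in HCC44, with an adjusted p of 0.425 unscaled, and was higher by 0.83 when scaled (adjusted p = 0.000542 by limma).

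Of the 6 PAX genes fitted, 2 fell, with a median of −0.27, and when scaled 0 were lower and 4 higher. PAX5, the factor of B cell identity, went from 9 and 7 to 5 and 4 in H1975 and from 9 and 7 to 5 and 3 in HCC44. The groups were apart in both lines and PAX5 fell by 0.79 (SE 0.18, adjusted p = 0.0222 by limma). Without H1975 DMSO replicate 1, H1975 ACBI1 replicate 2 or HCC44 DMSO replicate 1 its adjusted p by limma was 0.0729 to 0.0766. PAX8, a thyroid and kidney factor, had 6 and 6 against 7 and 6 in H1975 and 8 and 8 against 6 and 4 in HCC44, and the change over the lines together, −0.25, did not pass (adjusted p = 0.145 by limma). In HCC44 alone PAX8 fell by 0.61 (SE 0.17, adjusted p = 0.0469 by limma), a change of 0.23 in the other direction when scaled to list totals. PAX9 fell by 0.29 and PAX4, of the pancreatic islet, differed by −0.08 with an adjusted p of 0.554; both were higher when scaled. The PAX9 call was lost without any 1 ACBI1 or HCC44 sample (adjusted p 0.0783 to 0.0922 by limma) and with the pooled spread (0.174).

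Among LHX genes, which act in brain, pituitary and gonad, 3 of 6 fitted fell over both lines, and 1 was lower and 2 higher when scaled. LHX6 had 7 and 7 against 3 and 3 in H1975 and 5 and 5 against 3 and 3 in HCC44, with tied replicates in every group. LHX4, of the pituitary, had 2 and 2 against 2 and 1 in H1975 and 5 and 6 against 1 and 1 in HCC44. It fell by 0.99 (SE 0.15, adjusted p = 0.00567 by limma). The peak over the LHX4 promoter counted as surrounding in H1975 and as a boundary peak in HCC44. The LHX4 numbers of the 2 lines therefore do not cover the same sites. LHX9, of the gonad, had 2 in each H1975 sample, and 4 and 4 against 2 and 2 in HCC44; its fall of 0.37 over both lines had an adjusted p of 0.0917 by limma with the pooled spread. Of the 5 sine oculis homeobox genes fitted, 2 fell, namely SIX5 by 0.46 and SIX4 by 0.44, and when scaled 0 were lower and 3 higher. SIX4 lost its call without any 1 DMSO or HCC44 sample (adjusted p 0.121 to 0.129 by limma). SIX5, which adjoins the myotonic dystrophy gene DMPK, had 8 and 8 against 8 and 6 in H1975 and 9 and 9 against 5 and 5 in HCC44. SIX3, a forebrain and eye factor, had 4 and 4 against 3 and 1 and then 8 and 9 against 5 and 5, apart in both lines, with an adjusted p of 0.0523.

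No IRX gene reached the mean of 1 peak that the fit required. IRX3 and IRX4 each had 1 surrounding peak in every DMSO sample of both lines and 0 in every ACBI1 sample. IRX6 matched this but for 1 peak in H1975 ACBI1 replicate 1. With a single peak at stake these are descriptions of 1 region each. IRX3 and IRX5, which lie on chromosome 16 with IRX6, kept their boundary peaks in all 8 samples.

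**Figure D3:**
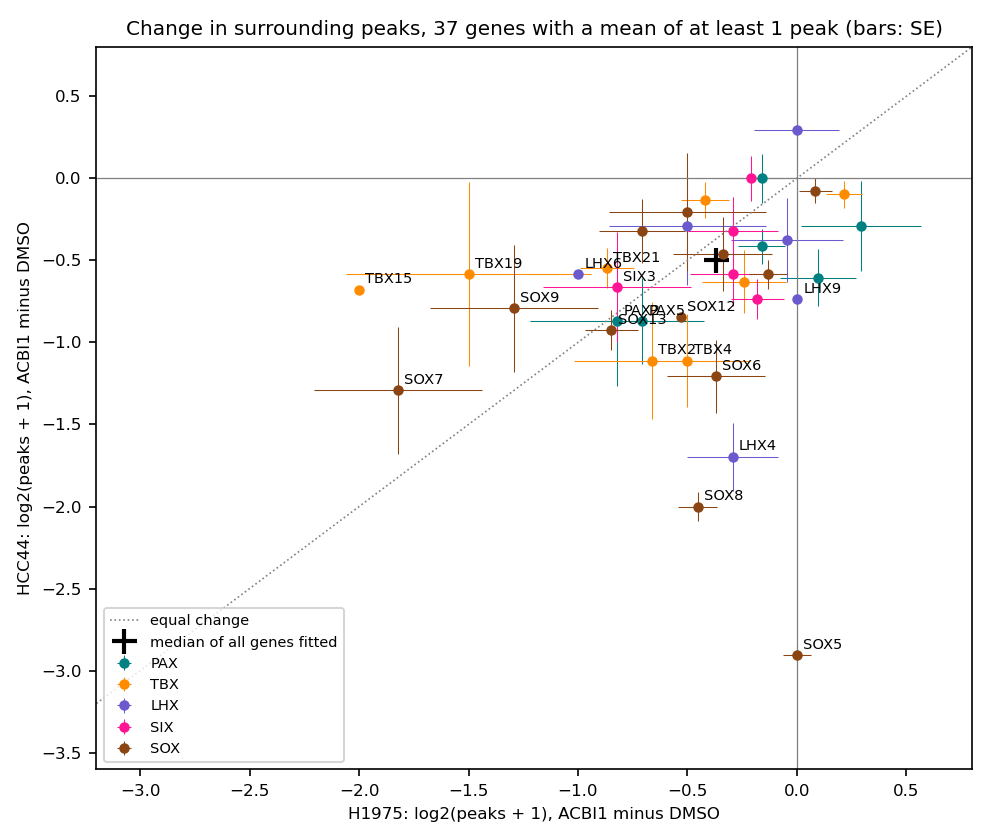
Change in log2(surrounding peaks + 1), ACBI1 minus DMSO, in H1975 (x axis) and HCC44 (y axis) for the 37 genes fitted, coloured by family, with the standard error from limma as bars; tied replicates give bars too short to see. The black cross is the median of all 15780 genes fitted. SOX5, SOX8 and LHX4 lie below the dotted line of equal change and TBX15 lies above it. For LHX4 the promoter peak counts as surrounding in H1975 only.

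Whether a gene changed more in 1 line on the log2 scale was tested by the interaction, the HCC44 change minus the H1975 change. SOX5 aside, 5 members passed: SOX8 at −1.55, LHX9 at −0.74, SOX12 at −0.32, LHX6 at 0.42 and TBX15 at 1.32. With SOX5, whose value of −2.90 is a description, the count was 6, against a background of 11.2%. Replicates tied in all 4 groups of LHX9, SOX12, LHX6 and TBX15. With 1 spread for genes of similar mean, 3 members passed beside SOX5 (background 6.58%), and the adjusted p-values of LHX9, SOX12 and LHX6 by limma were 0.293, 0.553 and 0.559. SOX8 and TBX15 passed both ways, and LHX4 passed with the pooled spread (−1.40, adjusted p = 0.009 by limma, against 0.0561). The LHX4 value compares unlike sites, since its promoter peak counts as surrounding in H1975 only. Scaled to list totals, SOX8 and TBX15 passed beside SOX5 (2.43%). SOX5 had no listed peak to lose in H1975. SOX8 lost 2 of 5 regions in H1975 and 3 of 3 in HCC44, and TBX15 lost 3 of 3 in H1975 and 3 of 7 in HCC44. SOX12 lost 4 of 12 in H1975 and 4 of 8 in HCC44. TBX15 and SOX12 thus lost equal numbers of regions in both lines. Their interactions are differences relative to unequal DMSO numbers, and TBX15 had no further surrounding peak to lose in H1975.

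The lines also differed before treatment. Between the DMSO groups 10 members passed (background 21.8%), 6 with more surrounding peaks in HCC44 and 4 with fewer, or 9 without SOX5, whose difference of 2.90 is again a description. Without HCC44 DMSO replicate 2 the count was 5. In HCC44, SIX2 was higher by 1.32, with 2 and 2 peaks in H1975 and 6 and 7 in HCC44. LHX4 was higher there by 1.11, TBX15 by 1.00, LHX9 by 0.74 and TBX21 by 0.55. The LHX4 counts include its promoter peak in H1975 only. TBX6 differed by −0.74 on this scale, with 9 and 9 peaks in H1975 and 5 and 5 in HCC44, and SOX12, SOX8 and LHX6 were lower too. Without any 1 of the 4 DMSO samples SIX2 and TBX6 had adjusted p-values of 0.0548 to 0.0817 and 0.0639 to 0.068 by limma, and LHX4 lost its call without any 1 DMSO or HCC44 sample (0.0592 to 0.119). With the pooled spread the adjusted p-values by limma were 0.182 for LHX6, 0.21 for SOX8 and 0.0625 for TBX21. HCC44 had longer DMSO lists than H1975; scaled to the totals, 5 were higher and 5 lower (18.7% of all genes called), with TBX10 among the lower and TBX21 no longer called. SIX2 and SIX3 lie next to each other and share part of their windows. With ACBI1, SIX2 had 2 and 1 surrounding peaks in H1975 and 5 and 5 in HCC44.

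Peaks were then merged into regions within each line to follow single sites. A region was lost when both DMSO samples and neither ACBI1 sample had a peak there, retained when all 4 samples did, and gained in the reverse of lost. Away from every gene boundary, 49 of 122 regions around members were lost in H1975 (40.2%, exact binomial 95% interval 31.4 to 49.4), against 48.2% of all such regions within 50 kb of a gene. In HCC44 it was 76 of 144 (52.8%, 44.3 to 61.1) against 60.7%. At member boundaries 0 of 23 regions were lost in H1975, with an upper bound of 14.8%, and 6 of 28 in HCC44 (21.4%, 8.30 to 41.0), where 4.23% and 8.72% of regions at the boundaries of all genes were lost. Regions are not replicates, and these intervals cover counting error only.

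Lost regions were narrow. Around members and away from boundaries their median width was 406 bp in H1975 and 584.5 bp in HCC44, and that of retained regions 765.5 and 972.5 bp. Over all genes the pairs were 389 and 778 bp and 594 and 928 bp. Of the regions around members, 120 had a peak in all 4 DMSO samples of both lines, of which 60 (50%) were retained in both, 27 (22.5%) were lost in both, 2 (1.67%) were lost in H1975 and retained in HCC44, and 10 (8.33%) were the reverse. Over all 29080 such regions, boundaries included, the shares were 51.8%, 25.1%, 1.78% and 6.28%.

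The lost regions with the highest ranks of −log10 q show where the strongest sites lay. In H1975 the first was 11.2 kb outside SOX12 at chr20:313979-314308, with a −log10 q of 74.1 and 77.1 in the DMSO lists, and the second 15.1 kb outside SOX13 at chr1:204057410-204057989, with 74.6 and 71.3. Next came regions near SOX7, LHX6 (19.4 kb outside, chr9:122248397-122248849) and TBX2 (42.8 kb outside, chr17:61356503-61357012). In HCC44 the first was 23.02 kb outside LHX3 at chr9:136228145-136228809, with 97.8 and 68.6, followed by regions 32.2 kb outside SOX12 at chr20:362432-363663, 44.0 kb outside SOX13 at chr1:204171700-204172063, 36.005 kb outside SOX4 at chr6:21634624-21634921 and 22.9 kb outside SIX3 at chr2:44918169-44918786. None of these 10 lay at a gene boundary, and none lay inside the member's body.

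Gains were fewer than losses, with 4 around members in H1975 and 9 in HCC44. Away from every boundary there were 4 gains beside 122 regions with a peak in both H1975 DMSO samples, and 8 beside 144 in HCC44. Over all such regions within 50 kb of a gene, gains numbered 512 beside 22649 in H1975 and 1028 beside 27471 in HCC44. The strongest in H1975 was 6.47 kb outside TBX10 at chr11:67648228-67648746, with a −log10 q of 40.2 and 32.4 in the ACBI1 lists. In HCC44 it was 21.1 kb outside LHX3 at chr9:136226236-136226587, with 21.4 and 21.9, and it lay beside the region near LHX3 that was lost. Another 2 gained regions in HCC44 lay inside genes, in LHX6 at chr9:122213820-122214277 and in SOX30 at chr5:157668736-157669228. The gene table used gives no exons, so introns and exons were not told apart.

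**Figure D4:**
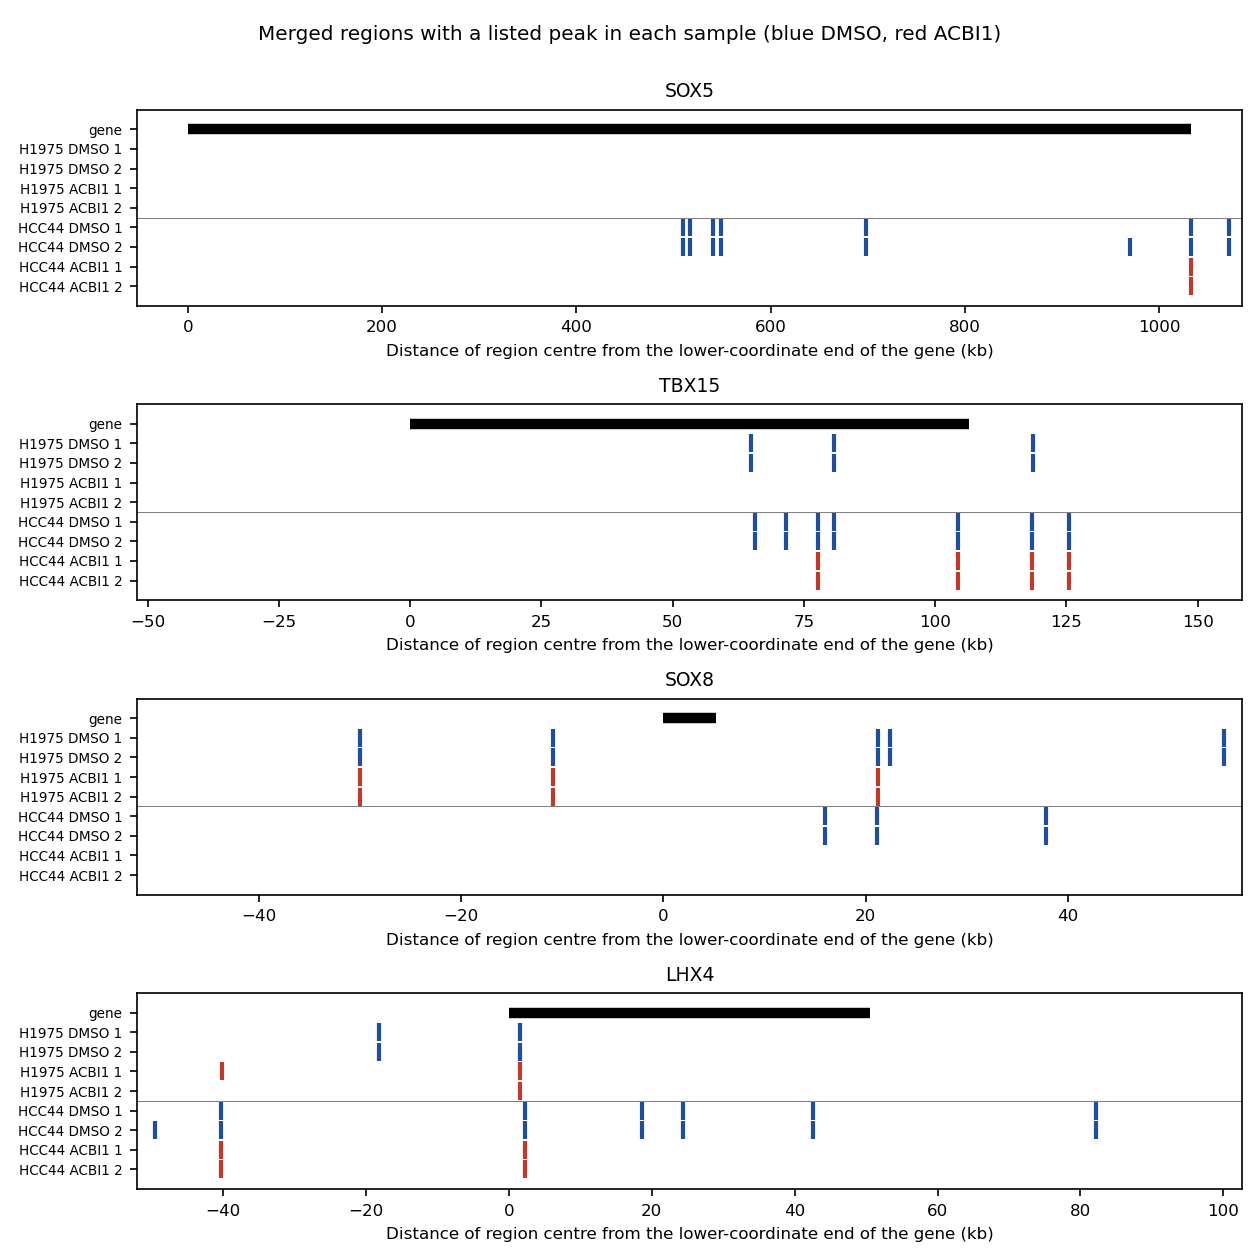
Merged regions around SOX5, TBX15, SOX8 and LHX4, placed by the distance of their centre from the lower-coordinate end of the gene (x axis, kb), with 1 row per sample and the gene body as a black bar; blue ticks are DMSO and red ticks ACBI1. SOX5 keeps only the region at its end in HCC44, TBX15 keeps 4 of 7 regions in HCC44 and none of 3 in H1975, and SOX8 keeps 3 of 5 in H1975 and none of 3 in HCC44.

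Individual loci showed these patterns site by site. Near TBX15, 3 regions were listed in both lines with DMSO. The ones inside the gene, at chr1:118947904-118948190 and chr1:118963569-118963942 in H1975, were lost in both lines, while the one beyond the gene, at chr1:119001247-119002290, was lost in H1975 and retained in HCC44. In HCC44 that site was 1760 bp wide in the merged list. Its −log10 q was 75.8 and 57.6 in the HCC44 DMSO lists and 25.4 and 21.7 in those of H1975. These values depend on depth, so they do not measure a difference between the lines. Around LHX4, HCC44 lost 4 of 5 regions and kept the one 39.9 kb outside, and a region over the promoter of LHX4 was listed in all 8 samples. That promoter starts inside the gene model of the table, more than 1 kb from its end, so H1975 shows no boundary peak for LHX4 and the promoter was counted as surrounding there. Retained sites prevailed at TBX10, with 8 of 8 regions retained in H1975 and 5 of 6 in HCC44. At PAX8, 6 of 6 regions were retained in H1975, and in HCC44 4 of 8 were retained and 2 lost.

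The RefSeq promoter table, with 250 bases before to 50 after each gene start, matched 39 of the 60 members and 15811 genes in all. A peak covered the window in all 8 samples at 9 members (23.1%, against 51.3% of all promoters) and in none at 22 (56.4%, against 36.7%). Member windows without a peak in any sample held a median of 21 CG dinucleotides, and those of all genes without a peak held a median of 6. Windows with a peak in all 8 samples held 29 in members and 28 over all genes. IRX4 with 47, IRX1 and TBX20 with 38 each and SOX1 with 37 had the most CG dinucleotides among member windows without a peak, and PAX5 and LHX9, printed above, had 30 and 23 in the whole window.

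**Figure D5:**
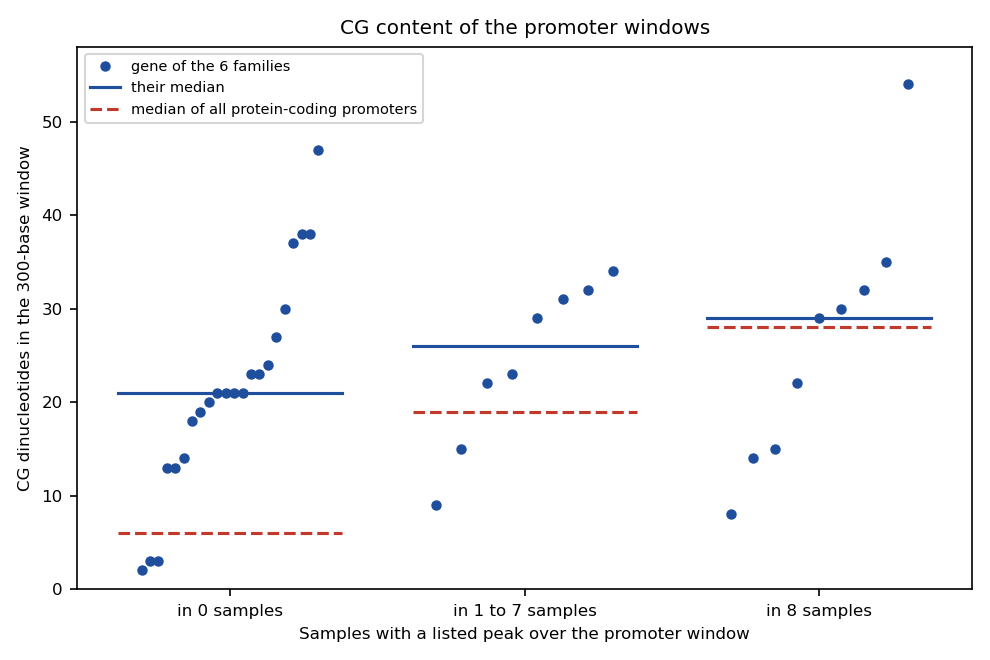
CG dinucleotides in the 300-base promoter window of the 39 matched members (points), by the number of samples with a listed peak over it; solid lines are their medians and dashed lines the medians of all 15811 protein-coding promoters. Among promoters with no peak in any sample the members' median is 21 and that of all promoters is 6, while with a peak in all 8 samples the medians are 29 and 28.

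Short motifs were searched on both strands of the windows. CCAAT was found in 18 of 39 members (46.2%) and 36.3% of all promoters. The AP-1 motif TGANTCA was found in 3 (7.69%, against 5.76%), namely LHX4, SIX6 and SOX6. TATAAA was found in 2 (5.13%, against 9.64%), PAX5 and SOX21, and TGACGTCA in 1 (2.56%, against 2.59%), PAX6. The searched motifs are short strings and a match is a description only.

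Genes related to these families were described the same way. Of 9 genes with the same classes of DNA-binding domain under other names, 5 entered the fit and 3 fell over both lines (background 55.7%). In the scaled fit 4 of 7 were higher (41.6%). EOMES, the T-box factor of T cells and early brain, had 4 and 4 against 2 and 2 in H1975 and 3 and 3 against 2 and 2 in HCC44. Of 23 partners and cofactors, 16 entered the fit and 9 fell (background 55.7%), and 4 were lower (15.8%) and 5 higher (41.6%) when scaled. The largest fall was that of TLE1, a co-repressor, from 8 and 6 surrounding peaks to 1 and 0 in H1975 and from 7 and 6 to 1 and 2 in HCC44. LMO1 and MEIS3, at 0.21 and −0.04, were not called. A boundary peak in all 8 samples was found at 11 of the 23 partners (47.8%), TLE1 among them, and at 14 of the 60 members (23.3%), against 52.8% of all genes.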

How the data were processed

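The authors deposited 1 broadPeak list per sample, without a header. Reads were aligned with BWA to hg38, per the submitters' processing notes; the version, the peak caller and its filters are not given in the sources used here. Peaks were listed per sample, not on pooled replicates. The fold enrichment of a peak is the authors' own ratio, its p and q values were deposited as −log10 values, and the deposited score column was not used. These values were compared within a list only. Depth in reads is unknown.

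Gene positions and promoters came from RefSeq (GRCh38.p14). For each gene, peaks within 1 kb of either end (boundary) and elsewhere in the body and 50 kb either side (surrounding) were counted. Log2(surrounding peaks + 1) of genes with a mean of at least 1 was fitted with limma 3.58.1 (R 4.3.3), with means of the 4 groups, a trend and Benjamini-Hochberg adjustment over all genes fitted; the script was tested on simulated data. Regions were peaks of 1 line merged at 1 bp overlap. Python 3.11.15 with pandas 2.3.3, numpy 2.4.6, scipy 1.17.1 and matplotlib 3.10.9 did the rest.

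Members and lists were chosen with earlier results of these data known. Values in every sample were given for the 12 members with the most surrounding peaks in DMSO, those that lost or gained a boundary peak, the 8 with the smallest p over both lines, the 5 with the smallest p of the interaction and the 8 of the DMSO contrast; other members were added as examples after their values were seen. Counts are over all members; 1 member is not reported here by itself or drawn in the plots by gene. Named regions were the 5 lost and 5 gained per line with the highest mean rank of −log10 q. Alternatives were list scaling, equal list lengths, stricter peaks, other windows, filters, pseudocounts and joins, a replicate block and each replicate left out. The pooled spread was added after seeing the data.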

Additional observations from a re-analysis of the deposited data

Results flagged for a closer look

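In all, 5 members were singled out because a test of the difference itself separated their changes in the 2 lines on the log2 scale. Given as the HCC44 change minus the H1975 change in log2(surrounding peaks + 1), they were SOX8 at −1.55, LHX9 at −0.74, SOX12 at −0.32, LHX6 at 0.42 and TBX15 at 1.32. SOX8 and TBX15 passed as well with a pooled spread and with lists scaled to equal totals, while LHX9, SOX12 and LHX6 passed under neither. Replicates of LHX9, SOX12, LHX6 and TBX15 tied in all 4 groups. SOX12 lost 4 regions in each line and TBX15 lost 3 in each, from unequal DMSO numbers. SOX5, at −2.90, is a description only: it met the filter on low values through the HCC44 DMSO samples alone and had no listed peak in H1975.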

How the results depend on the processing

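Of 120 values of the comparisons under other settings, 82 stayed within the margin set for them (1.5 times for counts, 1 SD or the 95% interval for other values), 36 moved and 2 reversed; of 80 with 1 replicate left out, 66 stayed and 14 moved. Of 514 single-gene values under other settings 387 kept their call, 85 lost it, 17 gained one and 25 reversed, and of 336 with 1 replicate left out 264 kept it, 65 lost it and 7 gained one. For the main 22 falls over both lines, 8 in H1975 and 15 in HCC44, 6 interaction calls and 10 differences between the DMSO groups, the moved counts were as follows. A mean of at least 3 peaks gave 14 over both lines, 3 for the interaction and 6 between the DMSO groups; fewer genes enter that fit. Scaling to equal list totals gave 5, 2 and 3 falls and 3 interaction calls. Equal numbers of peaks by −log10 q gave 4, 3 and 2 falls, 4, 7 and 1 members without overlap in H1975, HCC44 and both (main 18, 31 and 15), 10 of 12 and 10 of 10 members that kept a boundary peak (main 18 of 20 and 19 of 25), 23.2% and 34.2% of regions around members lost (main 31.2% and 44.1%, regions at other genes' boundaries included), and summed changes that reversed to 0.33 and 0.28. A minimum fold enrichment of 5 gave 5 falls in H1975, 4 differences between the DMSO groups, 4 of 8 and 1 of 4 kept boundary peaks, 40.2% and 63.4% of regions lost and a summed change of −1.77 in HCC44. Flanks of 100 kb gave 18 falls in H1975 and 23 in HCC44, and 31 and 26 members without overlap in H1975 and both lines. Joining peaks closer than 1200 bp gave 5 falls in H1975, and the pooled spread 13 in H1975 and 23 in HCC44. The summed change moved in HCC44 to −0.98 at a minimum −log10 q of 20 and −0.87 with flanks of 25 kb, and to −0.77 in H1975 and −0.93 in HCC44 without peaks at any gene boundary. For these the cause was not tested, unless named.

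Single genes that reversed over both lines were, when scaled, SOX12 to 0.074, SIX5 to 0.30, SOX18 to 0.36, PAX8 to 0.50, TBX6 to 0.47, TBX1 to 0.30, SOX30 to 0.11, SOX10 to 0.35, PAX9 to 0.36, SIX4 to 0.097 and LHX9 to 0.26. With equal numbers of peaks they were PAX5 at 0.023, PAX9 at 0.35, SOX6 at 0.58, SOX10 at 0.066, PAX8 at 0.76, TBX6 at 0.89, TBX1 at 0.76, SOX30 at 0.75, TBX4 at 0.25 and LHX9 at 0.58. SOX15 turned to −0.18 and PAX9 to 0.10 at a minimum −log10 q of 20, SIX4 to 0.15 with flanks of 25 kb, and the difference of TBX15 between the DMSO groups to −1 at a fold enrichment of 5.

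With each replicate left out in turn, falls ranged from 13 to 27 over both lines, 5 to 16 in H1975 and 9 to 21 in HCC44, interaction calls from 6 to 13 and differences between the DMSO groups from 5 to 13. Where a group keeps 1 sample, that sample is assumed to vary like the other groups. The shares of all genes that fell also moved when a replicate was left out. The 16 in H1975 came without H1975 ACBI1 replicate 1, as did the 27 and 13 interaction calls, 31 members without overlap in H1975 and 24 in both lines, and 43.6% of regions lost. In HCC44, leaving out DMSO replicate 2 or ACBI1 replicate 2 gave 9 falls. Leaving out HCC44 DMSO replicate 1 or 2 gave 5 falls in H1975, leaving out H1975 ACBI1 replicate 2 gave 11 interaction calls, and leaving out HCC44 DMSO replicate 2 gave 5 differences between the DMSO groups. Members without overlap ranged from 21 to 31 in H1975, 33 to 33 in HCC44 and 15 to 24 in both, summed changes from −0.75 to −0.39 and from −0.81 to −0.73, kept boundary peaks from 18 to 20 and from 19 to 21, and regions lost from 31.2% to 43.6% and from 44.8% to 48.4%. The number of members without overlap can only rise or stay when a sample is left out.

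The labels do not say that a replicate number pairs samples, and the correlation of same-numbered deviations from the group means was 0.074 in H1975 and 0.025 in HCC44. With the replicate block, 15 members fell over both lines, 6 in H1975 and 12 in HCC44, 6 interaction calls were made, and 6 differences between the DMSO groups. The exact permutation test cannot pass 0.05 here and has no alternatives. Depth was not in the files, so what it limits was not measured.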
